A study of Mus musculus with 12 samples.

Results

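Transcripts of 37 genes of the complement and coagulation systems were followed in 12 mouse tumours labelled malignant peripheral nerve sheath tumour, a sarcoma of the nerve sheath. The members form a list of complement components, regulators and receptors and of clotting and anticoagulant genes. All 37 were found by symbol among the 54532 genes counted, and 33 passed the filter on low counts. The 4 that did not were Cd46, F5, Proc and A2m. Of the 37 genes, 24 belong to complement and 11 to coagulation, and Serpinf1 and A2m are other secreted proteins of the inhibitor families. All tumours were raised in mice labelled C57B/6 and WT with an adenovirus carrying Cas9 against Nf1 and against a gene spelled Cdk2na, read here as Cdkn2a. The 4 terminal combination tumours had been dosed daily by oral gavage with 100 mg/kg palbociclib, which inhibits CDK4 and CDK6, plus 1 mg/kg mirdametinib, which inhibits MEK, and were taken at the terminal harvest. The 4 regressing tumours had the same drugs and were taken while they regressed, and the 4 vehicle tumours had vehicle by the same route and were taken at the terminal harvest. The labels give no age, do not name the cells that the virus reached and do not state whether each tumour had a mouse of its own, so the p-values cover only the spread among these libraries.

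Complement is a cascade of plasma and membrane proteins. It is started by C1q bound to antibody or dying cells, by lectins bound to sugars, or by spontaneous turnover of C3. All routes cut C3, which tags surfaces for uptake by phagocytes, releases small peptides that call in leukocytes, and leads to the membrane attack complex. Coagulation begins when tissue factor meets factor VII and leads to thrombin, and thrombomodulin, protein C and tissue factor pathway inhibitors hold it back. The liver makes most of the plasma proteins of both systems, while macrophages make C1q and fibroblasts, fat cells and endothelium make several other members in the tissue itself.

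RefSeq promoter sequences were matched by symbol for 25 of the 37 members, with 29 entries in all, each running from 250 bases before to 50 bases after a gene start on GRCm38.p6. The 5 printed here belong to members on which the results below turn: C1qb and C1qc, the macrophage genes with near-equal profiles, C1ra and C3, whose highest values both fell in regressing replicate 4, and Cd55, the member with the closest relation to a marker score. The entry of C1qb lies at chr4:136886151-136886450, that of C1qc at chr4:136892865-136893164, that of C3 at chr17:57228087-57228386 and that of Cd55 at chr1:130462695-130462994, all on the minus strand. The entry of C1ra lies at chr6:124512371-124512670 on the plus strand. Each is written 5′ to 3′ along its gene. Capitals mark every match, on either strand, to the letters GAGGAA in C1qb and C1qc, to TTNNGNAA in C1ra and C3, and to GGGCGG in Cd55.
C1qb: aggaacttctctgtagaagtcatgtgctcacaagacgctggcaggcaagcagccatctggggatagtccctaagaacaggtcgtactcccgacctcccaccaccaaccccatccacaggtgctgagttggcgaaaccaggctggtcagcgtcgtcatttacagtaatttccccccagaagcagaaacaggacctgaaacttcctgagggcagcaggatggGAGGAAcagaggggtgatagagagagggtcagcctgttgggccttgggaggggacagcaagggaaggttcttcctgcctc
C1qc: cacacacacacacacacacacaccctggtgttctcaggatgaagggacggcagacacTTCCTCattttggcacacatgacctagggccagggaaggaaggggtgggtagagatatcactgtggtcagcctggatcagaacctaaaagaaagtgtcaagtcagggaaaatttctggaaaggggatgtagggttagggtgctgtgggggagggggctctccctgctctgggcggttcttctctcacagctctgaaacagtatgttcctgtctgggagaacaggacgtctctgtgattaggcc
C1ra: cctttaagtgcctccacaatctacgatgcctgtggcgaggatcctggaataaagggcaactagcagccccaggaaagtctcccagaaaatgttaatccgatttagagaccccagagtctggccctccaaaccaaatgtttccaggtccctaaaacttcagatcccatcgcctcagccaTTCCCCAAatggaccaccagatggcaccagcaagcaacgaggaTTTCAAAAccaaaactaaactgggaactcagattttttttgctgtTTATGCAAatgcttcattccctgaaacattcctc
C3: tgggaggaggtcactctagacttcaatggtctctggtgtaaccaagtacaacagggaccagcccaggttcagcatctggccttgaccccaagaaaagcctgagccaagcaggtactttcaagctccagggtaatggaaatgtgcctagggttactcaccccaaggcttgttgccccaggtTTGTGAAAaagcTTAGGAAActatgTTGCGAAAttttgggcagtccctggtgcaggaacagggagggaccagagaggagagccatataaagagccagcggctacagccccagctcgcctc
Cd55: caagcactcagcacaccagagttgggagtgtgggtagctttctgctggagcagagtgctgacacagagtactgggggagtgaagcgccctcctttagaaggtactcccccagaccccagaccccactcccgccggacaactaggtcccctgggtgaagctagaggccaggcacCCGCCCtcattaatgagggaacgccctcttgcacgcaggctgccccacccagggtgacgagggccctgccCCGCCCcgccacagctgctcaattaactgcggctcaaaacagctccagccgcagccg

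The letters GAGGAA are the core bound by PU.1, a macrophage transcription factor. They began at position -30 in C1qb and at position -193 in C1qc, counting the gene start as 1 with no position 0. The entry of C1ra held them at position 45. Over all 32851 promoters of the same length 28.3% held this core on either strand, and 9 of the 29 member entries did. TTNNGNAA is a loose form of the site of C/EBP factors. It began at positions -72, -29 and 17 in C1ra, at -70, -58 and -45 in C3 and at -81 in C1qc. It stood in 40.7% of all promoters and in 14 of the 29 member entries. GGGCGG, the GC box, began at positions -77 and -7 in Cd55 and at position -24 in C1qc. It was held by 35.7% of all promoters and 10 of the 29 member entries. Of 2 further motifs searched on both strands, TTCNNNGAA for STAT factors stood in 8.3% of all promoters and in 4 member entries, with 1 match at position 33 in C1ra, and a 10-base motif for NF-kB stood in 1.47% of all promoters and in 0 member entries. The printed matches did not overlap one another. A match describes letters in this window only.

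The libraries held 13194699 to 22639625 counted reads, and a count of 0 allowed up to 0.128 to 0.231 CPM, for counting error only. CPM, counts scaled to a common depth after adjustment for library composition, is the level used throughout. Nf1 stood at 10.2 to 23.8 CPM and Cdkn2a at 5.08 to 393 CPM over the 12 libraries, which does not show whether either was edited. Of 6 Schwann cell and neural crest genes, Nes, which encodes nestin, stood highest at 54.3 to 589 CPM over the 12 libraries, and Sox2 reached at most 72.8 CPM and Erbb3 37.0 CPM. Sox10, S100b and Ngfr reached at most 2.10, 10.4 and 14.5 CPM, in tumours labelled as nerve sheath tumours. Skeletal muscle genes, 12 on the list, summed to 2976 to 37043 CPM in terminal combination tumours, 4460 to 59126 CPM in regressing tumours and 633 to 10139 CPM in vehicle tumours, and were highest in regressing replicates 1 and 4 and terminal combination replicate 2. Adipocyte genes, 10 on the list, summed to 84.3 to 577 CPM in terminal combination tumours, 259 to 2280 CPM in regressing tumours and 17.9 to 137 CPM in vehicle tumours. A marker score is the mean log2 CPM of such a list in a library, and some fits below used a score as a covariate. Muscle scores were 7.26 to 10.2 in terminal combination, 7.72 to 11.3 in regressing and 4.64 to 8.87 in vehicle tumours. Because this score differed with the group, such a fit cannot tell muscle content from treatment. The part of these tissues in the values below was not tested. In bulk RNA a lower level from fewer cells of a type and from less RNA per cell cannot be told apart, and the stage of harvest cannot be told apart from the regressing state.

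Levels per length spanned a wide range among the members. Per kilobase of exon, the median over 12 tumours was 539 CPM for C1qa, 460 CPM for C1qb and 224 CPM for C1qc, the chains of C1q. Serpinf1, which encodes the secreted protein PEDF, stood among them at 325 CPM per kilobase. The next were Serping1, the C1 inhibitor, at 57.4 CPM per kilobase and Clu, clusterin, at 42.4 CPM per kilobase. C3 was the 14th of the 37, at 15.7 CPM per kilobase, next to C1ra at 15.5 CPM per kilobase. At the bottom lay circulating factors and 1 membrane regulator. F10, Cfi, F7, F5, Cd46 and A2m had medians of 0.184, 0.163, 0.13, 0.046, 0.019 and 0.0134 CPM per kilobase, and Proc a median of 0. Ranges of neighbours in this order overlapped throughout, while the lowest C1qa value, 314 CPM per kilobase, lay above the highest value of every member other than C1qb, Serpinf1 and C1qc.

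**Figure D1:**
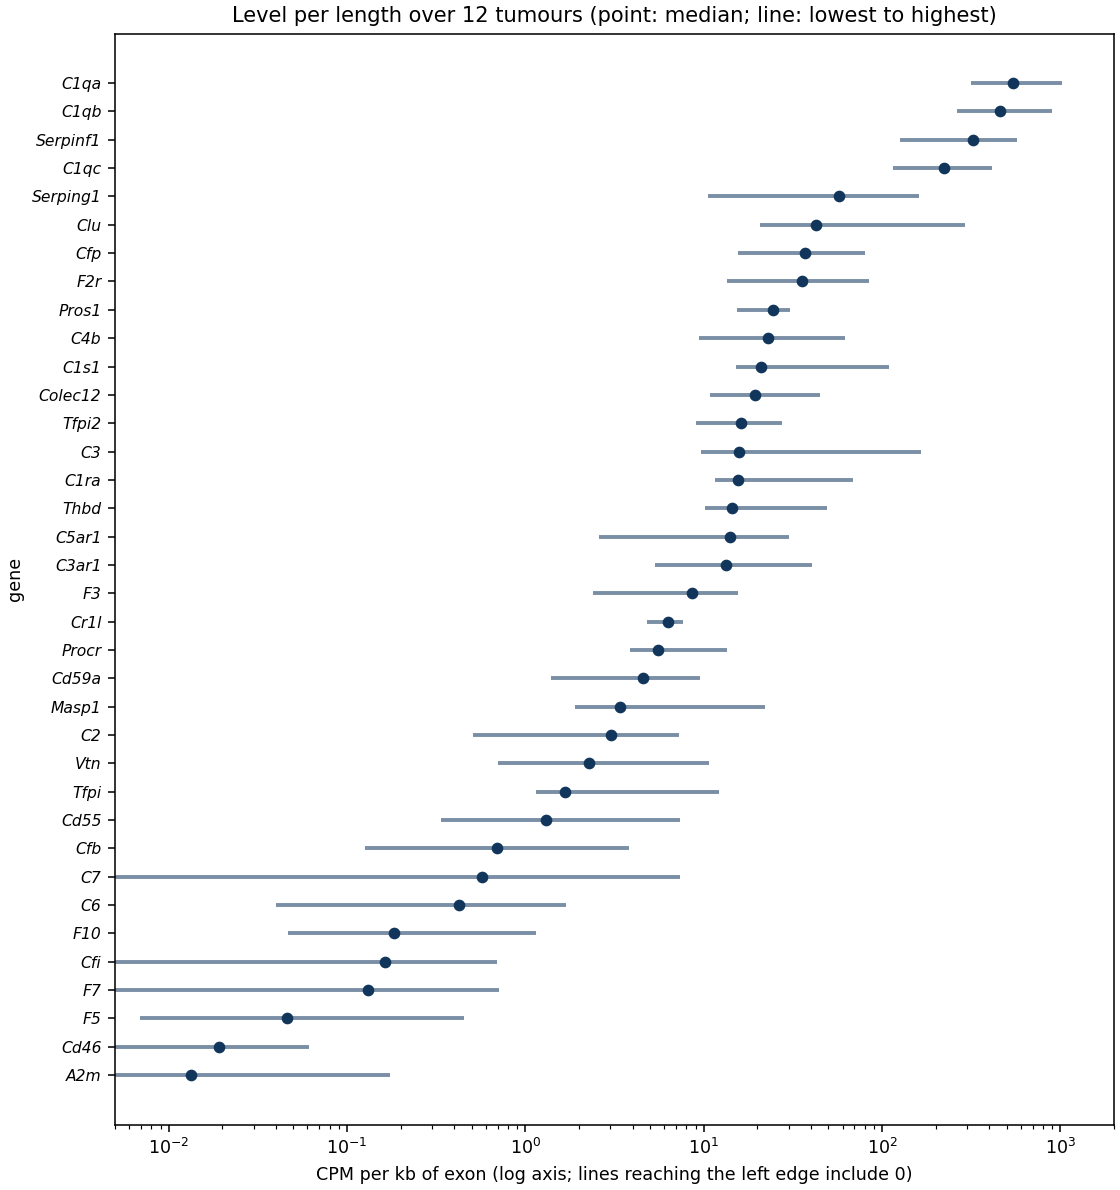
Level of each member in CPM per kilobase of exon on a log axis, with the median over 12 tumours as a point and the lowest and highest tumour as the ends of a line. C1qa, C1qb, Serpinf1 and C1qc stand at the top and the coagulation factors F10, F7 and F5 near the bottom; Proc, with a median of 0, is not drawn.

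The C1q genes lie together on chromosome 4 (C1qa at 136895917 to 136898803, C1qb at 136880129 to 136886187 and C1qc at 136889804 to 136893065, GRCm38), and were the most abundant complement transcripts per length in every group. C1qa (ENSMUSG00000036887) stood at 613, 428, 508 and 441 CPM across terminal combination replicates 1 to 4. Values were 757, 1059, 426 and 702 CPM across regressing replicates 1 to 4 and 911, 327, 365 and 672 CPM across vehicle replicates 1 to 4. The groups overlapped: vehicle replicate 1 was above all but 1 of the treated tumours and vehicle replicate 2 was the lowest of all. C1qb was at 492 ± 145 CPM (SD, n = 4) across terminal combination, 668 ± 260.0 CPM across regressing and 575 ± 300.4 CPM across vehicle tumours. C1qc was at 408 ± 109.9 CPM across terminal combination tumours, 551 ± 186 CPM across regressing tumours and 466 ± 238 CPM across vehicle tumours. The 3 chains kept nearly the same proportion in every tumour. Per length, C1qb was 0.708 to 1.09 times C1qa and C1qc was 0.361 to 0.499 times C1qa over the 12 tumours, although C1qa itself ranged 3.24-fold. C1qa also ran with Csf1r, the receptor that macrophages need to live, at a ratio of CPM of 1.00 to 2.13.

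C1ra and C1s1 encode C1r and C1s, the proteases that C1q carries and that cut C4 and C2. They lie side by side on chromosome 6, C1ra at 124512405 to 124523443 and C1s1 at 124530345 to 124542359. C1ra (ENSMUSG00000055172) stood at 69.5, 36.2, 36.5 and 72.3 CPM across terminal combination tumours, 95.7, 59.9, 39.2 and 205 CPM across regressing tumours and 53.0, 34.8, 38.9 and 34.4 CPM across vehicle tumours. C1s1 (ENSMUSG00000038521) stood at 86.6, 53.1, 52.4 and 113 CPM across terminal combination tumours, 135, 79.3, 51.8 and 343 CPM across regressing tumours and 66.0, 64.4, 54.7 and 47.3 CPM across vehicle tumours. Regressing replicate 4 was the highest and regressing replicate 1 the next for both genes, while regressing replicate 3 was among the vehicle tumours. Set against vehicle, regressing tumours had a log2 difference of 1.31 (SE 0.45) for C1ra and 1.39 (SE 0.50) for C1s1. Unadjusted edgeR p were 0.0140 and 0.0172, and neither passed after adjustment over all 15650 genes (edgeR adjusted p 0.282 and 0.291). Without regressing replicate 4 the log2 differences were 0.69 and 0.61. The pair moved together, with C1s1 at 1.19 to 1.76 times C1ra per length. C1s1 overlaps Gm16567 on the opposite strand, and reads of either gene may have been shared with the close copies C1rb and C1s2, which reached at most 0.926 and 1.00 CPM.

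C4b and C2 encode the parts of the C3-cutting enzyme that C1s makes. C4b (ENSMUSG00000073418, chromosome 17, 34728380 to 34743882) stood at 125, 135, 123 and 93.5 CPM across terminal combination tumours, 353, 296, 108 and 224 CPM across regressing tumours and 195, 66.4, 53.3 and 156 CPM across vehicle tumours. Regressing replicates 1, 2 and 4 lay above every other tumour and replicate 3 among them. The log2 difference was -1.04 (SE 0.43, edgeR unadjusted p 0.0338) for terminal combination against regressing and 1.06 (SE 0.43, unadjusted p 0.0313) for regressing against vehicle. Adjusted p were 0.703 and 0.346 in edgeR. C4a, a close copy that could share reads, reached at most 0.256 CPM. C2 stood at 21.7, 1.97, 10.6 and 9.18 CPM across terminal combination tumours, 28.1, 20.4, 7.28 and 27.0 CPM across regressing tumours and 5.56, 13.4, 12.7 and 8.40 CPM across vehicle tumours, with regressing replicates 1 and 4 highest and terminal combination replicate 2 lowest. C2 and its neighbour Cfb overlap the same gene model, Gm20547, on their own strand, so their counts are uncertain.

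**Figure D2:**
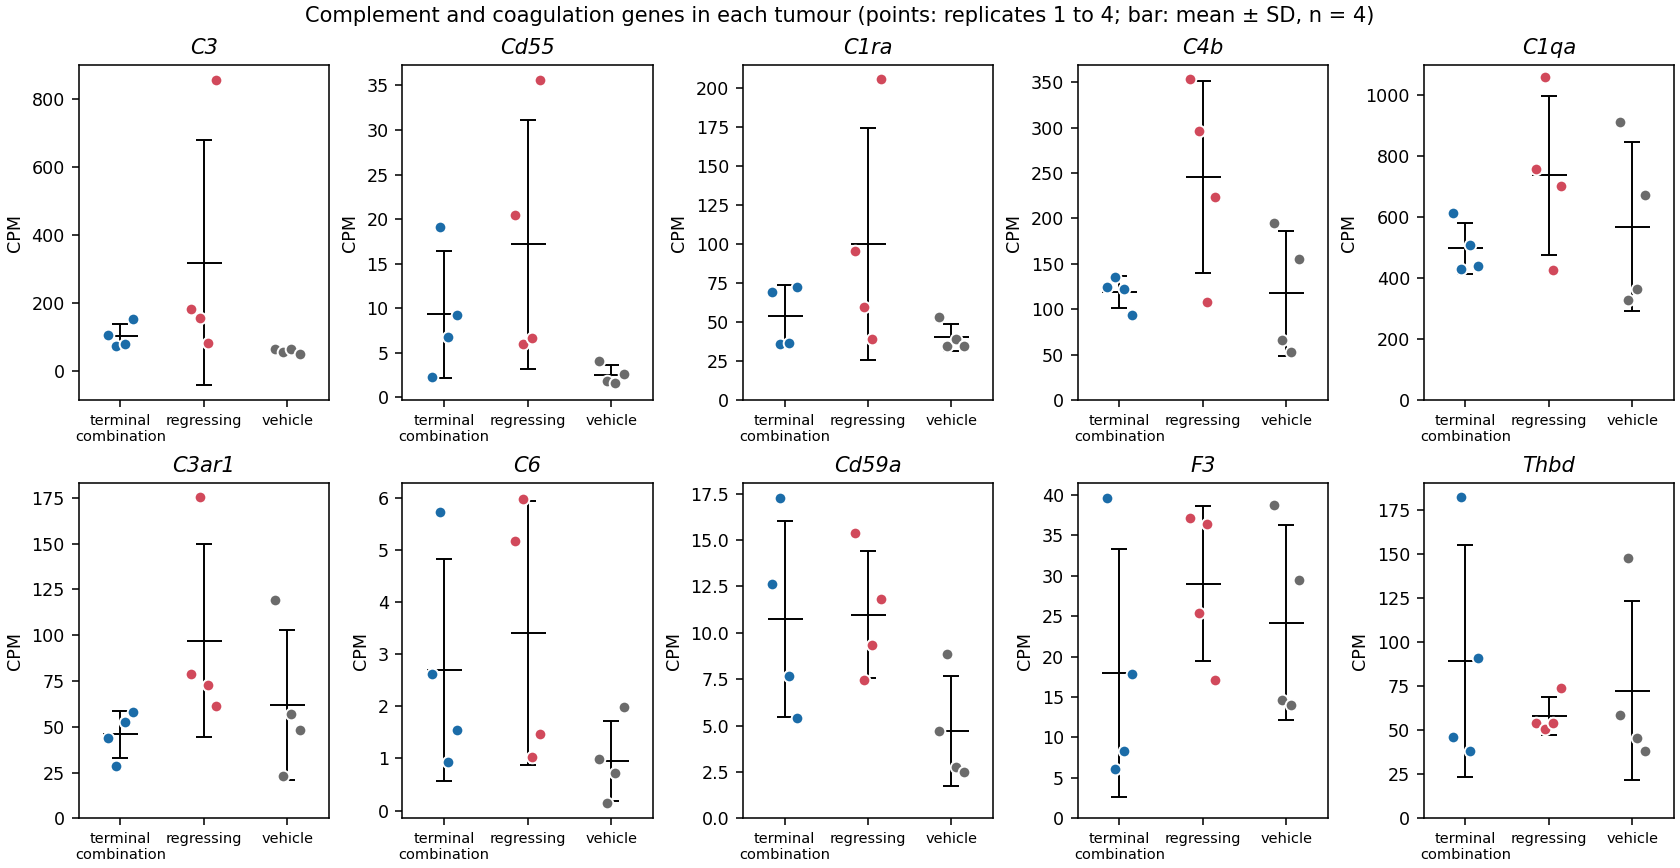
CPM of 10 members in each tumour, with points for replicates 1 to 4 and bars for the mean ± SD (n = 4) of terminal combination, regressing and vehicle tumours from left to right. C3 and Cd55 of regressing tumours lie above every vehicle tumour, and C3 of regressing replicate 4 at 855 CPM lies far above the rest.

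The lectin route had only Masp1 and Colec12 among the members. Masp1, a protease that mannose-binding lectin and ficolins carry, stood at 217, 65.1, 28.9 and 21.2 CPM across terminal combination tumours, 33.1, 34.0, 30.0 and 126 CPM across regressing tumours and 93.6, 18.6, 49.5 and 30.0 CPM across vehicle tumours. Terminal combination replicate 1, regressing replicate 4 and vehicle replicate 1 were the highest of their groups, and the groups overlapped. Colec12, a membrane lectin and scavenger receptor, stood at 134, 177, 109 and 374 CPM across terminal combination tumours, 388, 179, 209 and 94.6 CPM across regressing tumours and 391, 128, 161 and 95.3 CPM across vehicle tumours, with 1 tumour of each group between 374 and 391 CPM.

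C3 (ENSMUSG00000024164, chromosome 17, 57203970 to 57228136) encodes the protein on which all routes meet. It stood at 107, 74.2, 79.3 and 152 CPM across terminal combination replicates 1 to 4, 182, 155, 81.8 and 855 CPM across regressing replicates 1 to 4 and 64.1, 54.0, 63.9 and 49.4 CPM across vehicle replicates 1 to 4. All 8 treated tumours lay above all 4 vehicle tumours, while the treated groups overlapped each other. Against vehicle, 3.5% of all genes were higher without overlap in regressing tumours and 1.21% in terminal combination tumours. The share for all 8 treated tumours together was not computed. Terminal combination against vehicle, the unadjusted edgeR p of C3 was 0.183 and the adjusted p 0.876. The mean was 103 ± 35.7 CPM across terminal combination tumours, 318 ± 359.9 CPM across regressing tumours and 57.9 ± 7.32 CPM across vehicle tumours (SD, n = 4), and the vehicle tumours lay closest together. Regressing against vehicle, the log2 difference was 2.46 (SE 0.62) with an unadjusted edgeR p of 0.00191 and an adjusted p of 0.236. DESeq2 called it higher (adjusted p 0.00378). Terminal combination against regressing, the log2 difference was -1.63 (SE 0.60) with an unadjusted p of 0.0192 and an edgeR adjusted p of 0.692. Without regressing replicate 4 both values were nearer 0, at 1.27 and -0.44. The DESeq2 call against vehicle held when any 1 library was left out, at an adjusted p of 0.0225 without regressing replicate 4. It was lost without regressing replicates 1 and 4 together (log2 difference 1.05, adjusted p 0.477) and with the muscle score as a covariate (1.54, adjusted p 0.827). In those fits DESeq2 called 20 of 16448 and 48 of 15650 genes in all, against 483 of 15650 in its main fit.

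Cfb, the protease of the alternative C3 convertase, was scarce at 1.13, 0.357, 2.54 and 1.77 CPM across terminal combination tumours, 2.17, 3.48, 1.38 and 10.8 CPM across regressing tumours and 6.03, 0.500, 1.02 and 4.43 CPM across vehicle tumours. Its highest value was again in regressing replicate 4, and the groups overlapped. Cfp, which encodes properdin, the stabiliser of that convertase that myeloid cells store, stood at 74.8, 139, 64.1 and 45.2 CPM across terminal combination tumours, 60.8, 106, 63.8 and 69.4 CPM across regressing tumours and 113, 33.1, 27.1 and 48.6 CPM across vehicle tumours. Here terminal combination replicate 2 was highest and no group stood apart.

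C6 and C7, which join C5b in the membrane attack complex, lie on chromosome 15 and were low. C6 (ENSMUSG00000022181, 4727175 to 4814967) stood at 2.61, 5.72, 0.929 and 1.54 CPM across terminal combination tumours, 5.16, 5.98, 1.02 and 1.47 CPM across regressing tumours and 0.984, 0.143, 0.712 and 1.98 CPM across vehicle tumours. C7 (ENSMUSG00000079105, 4988762 to 5063740) stood at 0.0512, 1.73, 1.37 and 18.4 CPM across terminal combination tumours, 19.8, 1.39, 4.39 and 12.7 CPM across regressing tumours and 1.37, 0, 1.68 and 1.11 CPM across vehicle tumours. C6 was highest in terminal combination replicate 2 and regressing replicates 1 and 2. C7 was highest in terminal combination replicate 4 and regressing replicates 1 and 4, and at most 4.39 CPM in the other treated tumours, so the groups overlapped for both genes. Regressing against vehicle, log2 differences were 1.82 (SE 0.81, p 0.0459) for C6 and 3.18 (SE 1.40, p 0.0435) for C7 in edgeR, unadjusted, with adjusted p of 0.381 and 0.375. The fitted value of C7 depends on counts near 0 in vehicle tumours, and with the muscle score as a covariate it reversed to -0.88.

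C3ar1 and C5ar1 encode the receptors for C3a and C5a, the peptides that draw and activate myeloid cells. C3ar1 (ENSMUSG00000040552, chromosome 6, 122847138 to 122856161) stood at 44.0, 28.4, 52.8 and 58.0 CPM across terminal combination tumours, 79.1, 175, 72.7 and 61.1 CPM across regressing tumours and 119, 23.1, 56.9 and 48.3 CPM across vehicle tumours. Every terminal combination tumour lay below every regressing tumour, as for 1.51% of all genes, and the vehicle tumours spanned both. The log2 difference of terminal combination against regressing tumours was -1.08 (SE 0.47, edgeR unadjusted p 0.0414, adjusted p 0.707). Without regressing replicate 2, the highest tumour, it was -0.65. C5ar1 stood at 40.6, 37.5, 38.3 and 17.8 CPM across terminal combination tumours, 38.6, 77.3, 34.2 and 14.2 CPM across regressing tumours and 60.3, 6.65, 16.7 and 34.1 CPM across vehicle tumours, and its groups overlapped.

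Among the inhibitors, Cd55 and Cd59a had an unadjusted edgeR p under 0.05 in both treated groups against vehicle. Cd55 (ENSMUSG00000026399, chromosome 1, 130439027 to 130462744) encodes decay-accelerating factor, which takes C3 convertases apart on the cell's own surface. It stood at 2.25, 19.1, 6.75 and 9.18 CPM across terminal combination replicates 1 to 4, 20.5, 6.04, 6.65 and 35.6 CPM across regressing replicates 1 to 4 and 4.11, 1.79, 1.63 and 2.57 CPM across vehicle replicates 1 to 4. All regressing tumours lay above all vehicle tumours, as for 3.5% of all genes, and terminal combination replicate 1 lay among the vehicle tumours. Terminal combination against vehicle, the log2 difference was 1.88 (SE 0.70, edgeR unadjusted p 0.0207, adjusted p 0.819). Regressing against vehicle it was 2.76 (SE 0.72, unadjusted p 0.00258, edgeR adjusted p 0.236). DESeq2 called the gene higher in regressing tumours (adjusted p 0.0054). Its DESeq2 log2 difference was 2.78 with all libraries. It was 2.70 without regressing replicate 1 and 2.13 without replicate 4, where the call was lost (adjusted p 0.0591 and 0.0977). In those fits DESeq2 called 105 of 15988 and 166 of 15906 genes in all, against 483 of 15650 with all libraries. With the muscle score added as a covariate, edgeR log2 differences of Cd55 were 0.26 for terminal combination and 0.64 for regressing against vehicle. Cd55 overlaps Gm16083 on the opposite strand.

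Cd59a (ENSMUSG00000032679, chromosome 2, 104095801 to 104115354), which blocks the last step of the membrane attack complex, stood at 12.6, 17.3, 7.68 and 5.42 CPM across terminal combination tumours, 15.4, 7.43, 9.32 and 11.8 CPM across regressing tumours and 4.70, 8.86, 2.75 and 2.51 CPM across vehicle tumours. Vehicle replicate 2 lay among the treated tumours, so the groups overlapped. The log2 difference was 1.19 (SE 0.47, edgeR unadjusted p 0.0262) for terminal combination and 1.22 (SE 0.47, unadjusted p 0.0235) for regressing tumours against vehicle. EdgeR adjusted p were 0.819 and 0.319. With the muscle score added as a covariate, the log2 differences were 1.26 and 1.31, close to those without it. Neither then had an unadjusted edgeR p under 0.05, which 3.32% and 4.26% of all genes had.

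Serping1, the inhibitor of C1r and C1s, stood at 24.4, 94.8, 133 and 199 CPM across terminal combination tumours, 375, 179, 134 and 208 CPM across regressing tumours and 84.0, 177, 115 and 101 CPM across vehicle tumours. Regressing replicate 1 was the highest and terminal combination replicate 1 the lowest, a 15.4-fold range. Clu, which with vitronectin keeps soluble attack complexes out of membranes, stood at 403, 872, 121 and 80.3 CPM across terminal combination tumours, 651, 170.5, 92.1 and 1007 CPM across regressing tumours and 118, 633, 75.2 and 70.9 CPM across vehicle tumours. Each group held both high and low tumours, and the groups overlapped. Vtn, vitronectin, stood at 3.12, 4.77, 2.05 and 5.42 CPM across terminal combination tumours, 14.97, 6.91, 4.48 and 19.0 CPM across regressing tumours and 2.31, 1.43, 21.8 and 3.91 CPM across vehicle tumours, with its highest value in vehicle replicate 3. Cr1l, the rodent regulator Crry, was the steadiest member of all, at 67.2 ± 7.99 CPM (SD, n = 4) across terminal combination, 68.8 ± 9.52 CPM across regressing and 60.2 ± 11.1 CPM across vehicle tumours, with a 1.58-fold range over the 12. Cfi, the protease that destroys C3b, reached at most 1.54 CPM, and Cd46, a regulator that is known mainly from the testis in mice, at most 0.463 CPM.

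**Figure D3:**
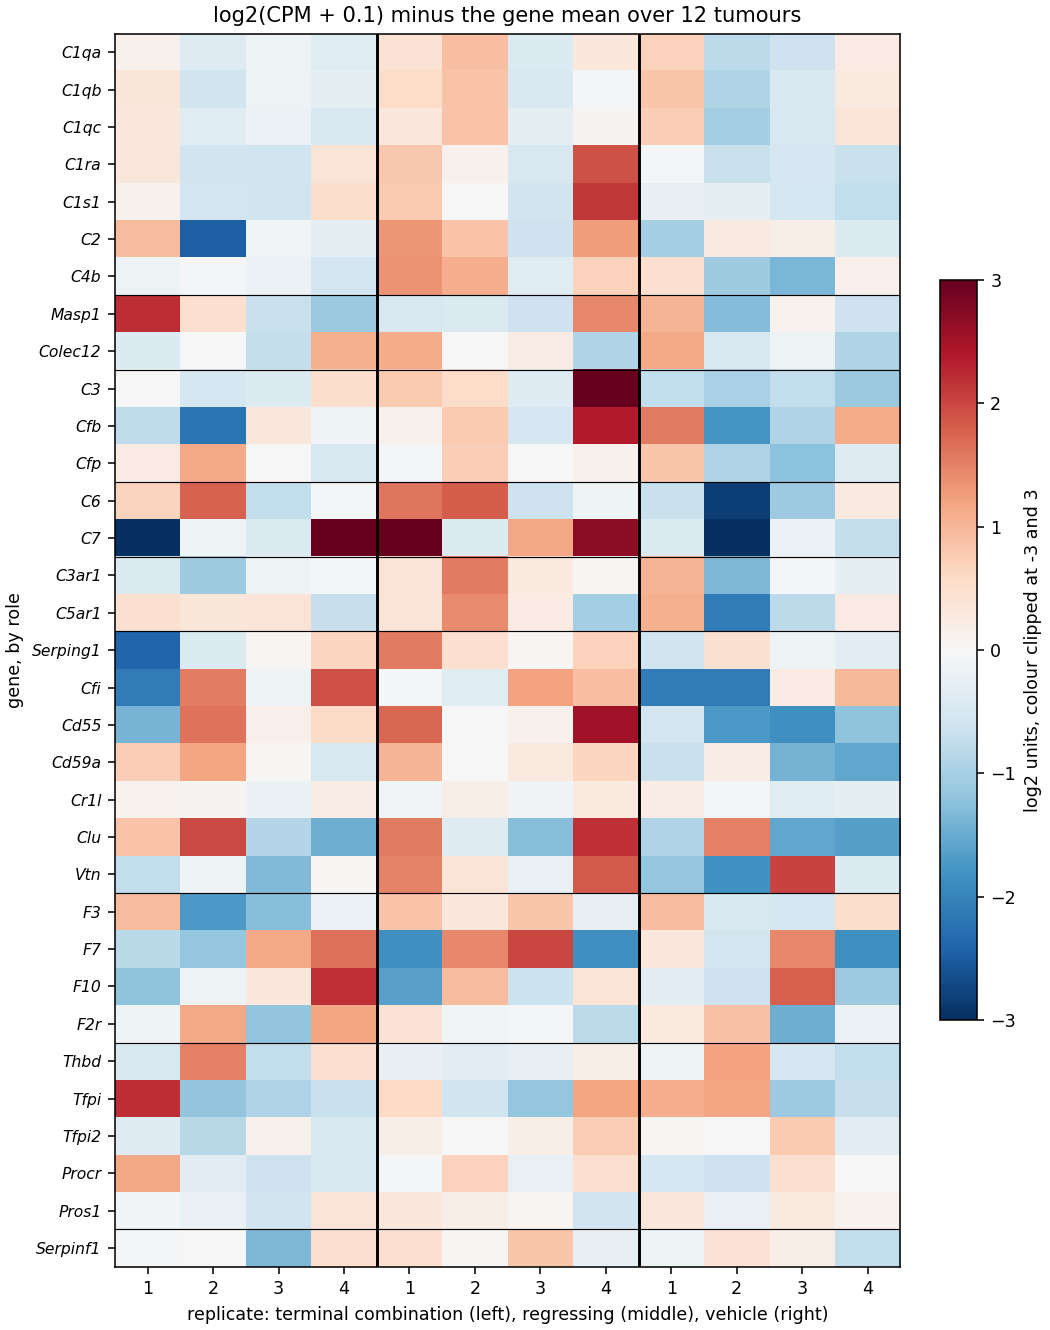
log2(CPM + 0.1) of each tested member minus its mean over 12 tumours, in role order down the page, with replicates 1 to 4 of terminal combination, regressing and vehicle tumours from left to right. Complement members are mostly above their mean in regressing replicates 1, 2 and 4. The coagulation members lower down are mixed in these columns.

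Coagulation members were led per length by F2r, Pros1, Tfpi2 and Thbd, with medians of 35.5, 24.6, 16.2 and 14.5 CPM per kilobase. F3 (chromosome 3, 121723537 to 121735048), tissue factor, stood at 39.6, 6.08, 8.36 and 17.9 CPM across terminal combination tumours, 37.1, 25.4, 36.4 and 17.05 CPM across regressing tumours and 38.8, 14.6, 14.0 and 29.4 CPM across vehicle tumours. The groups overlapped, with terminal combination replicates 2 and 3 lowest. F2r, the thrombin receptor PAR1, stood at 114, 273, 54.9 and 283 CPM across terminal combination tumours, 167, 117, 119.7 and 72.0 CPM across regressing tumours and 152, 229, 45.3 and 110.0 CPM across vehicle tumours. Thbd, thrombomodulin, which turns thrombin toward protein C, stood at 46.2, 182, 38.4 and 90.8 CPM across terminal combination tumours, 54.0, 50.7, 53.8 and 73.8 CPM across regressing tumours and 58.3, 148, 45.4 and 38.0 CPM across vehicle tumours. For both genes terminal combination replicate 2 and vehicle replicate 2 were among the highest tumours and regressing tumours were in between. F7 and F10, the circulating factors with which tissue factor works, reached at most 1.33 and 3.14 CPM, and F5, the cofactor of activated factor X, at most 3.37 CPM, in terminal combination replicate 3.

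Tfpi2 (ENSMUSG00000029664, chromosome 6, 3962595 to 3988919), a matrix-bound inhibitor of tissue factor and plasmin, was the only coagulation member with an unadjusted edgeR p under 0.05. It stood at 21.7, 15.8, 31.0 and 20.1 CPM across terminal combination tumours, 31.5, 27.7, 31.8 and 47.8 CPM across regressing tumours and 28.8, 27.9, 48.2 and 22.2 CPM across vehicle tumours. The log2 difference of terminal combination against regressing tumours was -0.65 (SE 0.28, p 0.0414, adjusted p 0.707). Terminal combination replicate 3 lay within the regressing range and the other 3 below it. Tfpi, the main inhibitor of tissue factor, stood at 66.5, 6.25, 7.48 and 8.84 CPM across terminal combination tumours, 21.7, 9.41, 6.30 and 32.6 CPM across regressing tumours and 30.5, 32.6, 6.66 and 8.75 CPM across vehicle tumours. Procr, the endothelial protein C receptor, stood at 27.5, 9.65, 7.87 and 8.90 CPM across terminal combination tumours, 11.9, 19.9, 10.5 and 17.3 CPM across regressing tumours and 8.43, 7.93, 17.2 and 12.4 CPM across vehicle tumours. Both had their highest value in terminal combination replicate 1. Pros1, protein S, the cofactor of protein C and a bridge to dying cells, varied little, at 90.1 ± 25.4 CPM (SD, n = 4) across terminal combination, 98.1 ± 25.0 CPM across regressing and 105 ± 17.2 CPM across vehicle tumours. Proc, protein C itself, had 1 read in terminal combination replicate 1, 2 reads in regressing replicate 1 and 0 in the other libraries.

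Serpinf1, which encodes an antiangiogenic serpin without protease-inhibiting activity, stood at 727, 759, 299 and 1071 CPM across terminal combination tumours, 1052, 773, 1350.1 and 643 CPM across regressing tumours and 697, 1022, 875 and 453 CPM across vehicle tumours. Its groups overlapped. A2m, a broad protease inhibitor of plasma, reached at most 1.22 CPM.

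The terminal combination tumours, set against the regressing ones under the same drugs, had fitted values below 0 for most complement members tested. No member passed in edgeR, as for all genes (0%), while 1099 of 15650 genes had an unadjusted p under 0.05. Of the 33 members tested, 4 were lower at an unadjusted edgeR p under 0.05, against 2.9% of all genes, and 0 were higher, against 4.12%. The 4 lower members were C4b, C3, C3ar1 and Tfpi2. The log2 difference was above 0 for 7 of the 33, against 50.8% of all genes, with a median of -0.42 for members and 0.01 for all genes. By role, 3 of 23 tested complement members were above 0 (median -0.57), among them none of the 7 classical pathway members, and 4 of 9 tested coagulation members were (median -0.12). C3ar1 was the 1 member whose groups did not overlap, lower in terminal combination tumours, against 1.51% of all genes, and 0 members were higher in this way, against 2.4%. DESeq2 called 0 members (0.153% of all genes higher and 0.173% lower). Without regressing replicate 2 the median was -0.22, and without terminal combination replicate 3 12 of 33 were above 0. The number at an unadjusted p under 0.05 was 1 without terminal combination replicate 2 (6.87% of all genes) and 2 without terminal combination replicate 3 (7.5%), regressing replicate 1 (5.1%) or regressing replicate 4 (4.58%). It was 0 with the muscle score as a covariate (5.6%). Without regressing replicates 1 and 4 the median of members was -0.17 and 15 of 35 were above 0. Some titles end in FFT, which the labels do not explain, and in the 8 libraries without it 10 of 35 were above 0 with a median of -0.43. Of these 35, 3 had an unadjusted edgeR p under 0.05 (5.41% of all genes).

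Terminal combination tumours, set against vehicle tumours, gave differences of both signs. EdgeR called 0 members and 0 genes (0%), while 930 genes had an unadjusted p under 0.05. Cd55 and Cd59a, 2 of the 33 members, were higher at an unadjusted p under 0.05, against 3.35% of all genes, and 0 were lower, against 2.59%. The log2 difference was above 0 for 22 of 33 members, against 50.4% of all genes, with a median of 0.19 for members and 0.00 for all genes. Complement members were above 0 in 16 of 23 (median 0.19) and coagulation members in 6 of 9 (median 0.23). C3 was the 1 member whose groups did not overlap, higher in terminal combination tumours, against 1.21% of all genes, and 0 members were lower in this way, against 1.3%. DESeq2 called 0 members, against 0.0575% of all genes higher and 0.0319% lower. The median was 0.38 without vehicle replicate 1, 0.11 without vehicle replicate 4 and 0.12 without terminal combination replicate 4. No member had an unadjusted p under 0.05 without vehicle replicate 3 (3.61% of all genes) or terminal combination replicate 2 (3.65%), 1 did without vehicle replicate 2 (6.86%), and at most 3 did without any other library. With the muscle score added as a covariate, the median was 0.05, 18 of 33 were above 0, and Cd55 and Cd59a no longer had an unadjusted p under 0.05 (3.32% of all genes). Among the 8 libraries lacking the title ending FFT, 21 of 35 members were above 0 with a median of 0.30. Of these 35, 2 had an unadjusted edgeR p under 0.05 (6.8% of all genes).

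Regressing against vehicle tumours, every complement member tested had a log2 difference above 0, and coagulation members were split. EdgeR called 0 members and 0 genes (0%), while 1994 genes had an unadjusted p under 0.05. Members higher at an unadjusted p under 0.05 were 8 of 33, against 6.72% of all genes, and 0 were lower, against 6.03%. They were C1ra, C1s1, C4b, C3, C6, C7, Cd55 and Cd59a. The log2 difference was above 0 for 28 of 33 members, against 48.5% of all genes, with a median of 0.48 for members and -0.02 for all genes. It was above 0 for 23 of 23 tested complement members (median 0.87) and 4 of 9 tested coagulation members (median -0.10). DESeq2 called 2 members higher, C3 and Cd55, against 2.2% of all genes, and 0 lower, against 0.888%. C3 and Cd55 were also the 2 members whose groups did not overlap, both higher, against 3.5% of all genes, and 0 members were lower in this way, against 4.13%. With 1 library left out, the median ran between 0.27 without vehicle replicate 2 and 0.77 without vehicle replicate 1, with 27 to 29 of 33 above 0. The number at an unadjusted p under 0.05 was then 4 to 9, and it was 4 without regressing replicate 1 (7.96% of all genes), 5 without regressing replicate 4 (8.68%) and 5 without vehicle replicate 3 (9.51%). With the macrophage score as a covariate 28 of 33 members were above 0 with a median of 0.40. Of these 33, 6 had an unadjusted p under 0.05, against 11.5% of all genes. With the muscle score as a covariate 23 of 33 members were above 0 with a median of 0.28. In that fit 0 had an unadjusted p under 0.05, against 4.26% of all genes. Without regressing replicates 1 and 4 the median was 0.36, and 24 of 35 members tested were above 0. Of these 35, 1 had an unadjusted p under 0.05, against 3.54% of all genes. The counts of 0 and 1 lie near those shares. The 8 libraries lacking the title ending FFT hold only replicates 3 and 4 of the vehicle group. Among them 31 of 35 members tested were above 0 with a median of 0.69, and C3 and Cd55 had log2 differences of 2.68 and 2.93. Of these 35, 3 had an unadjusted edgeR p under 0.05, against 7.9% of all genes, which is also near that share. The 4 libraries with that ending hold 1 tumour of each treated group, too few for values of their own. The 3 comparisons share their groups in pairs and are not independent of each other.

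**Figure D4:**
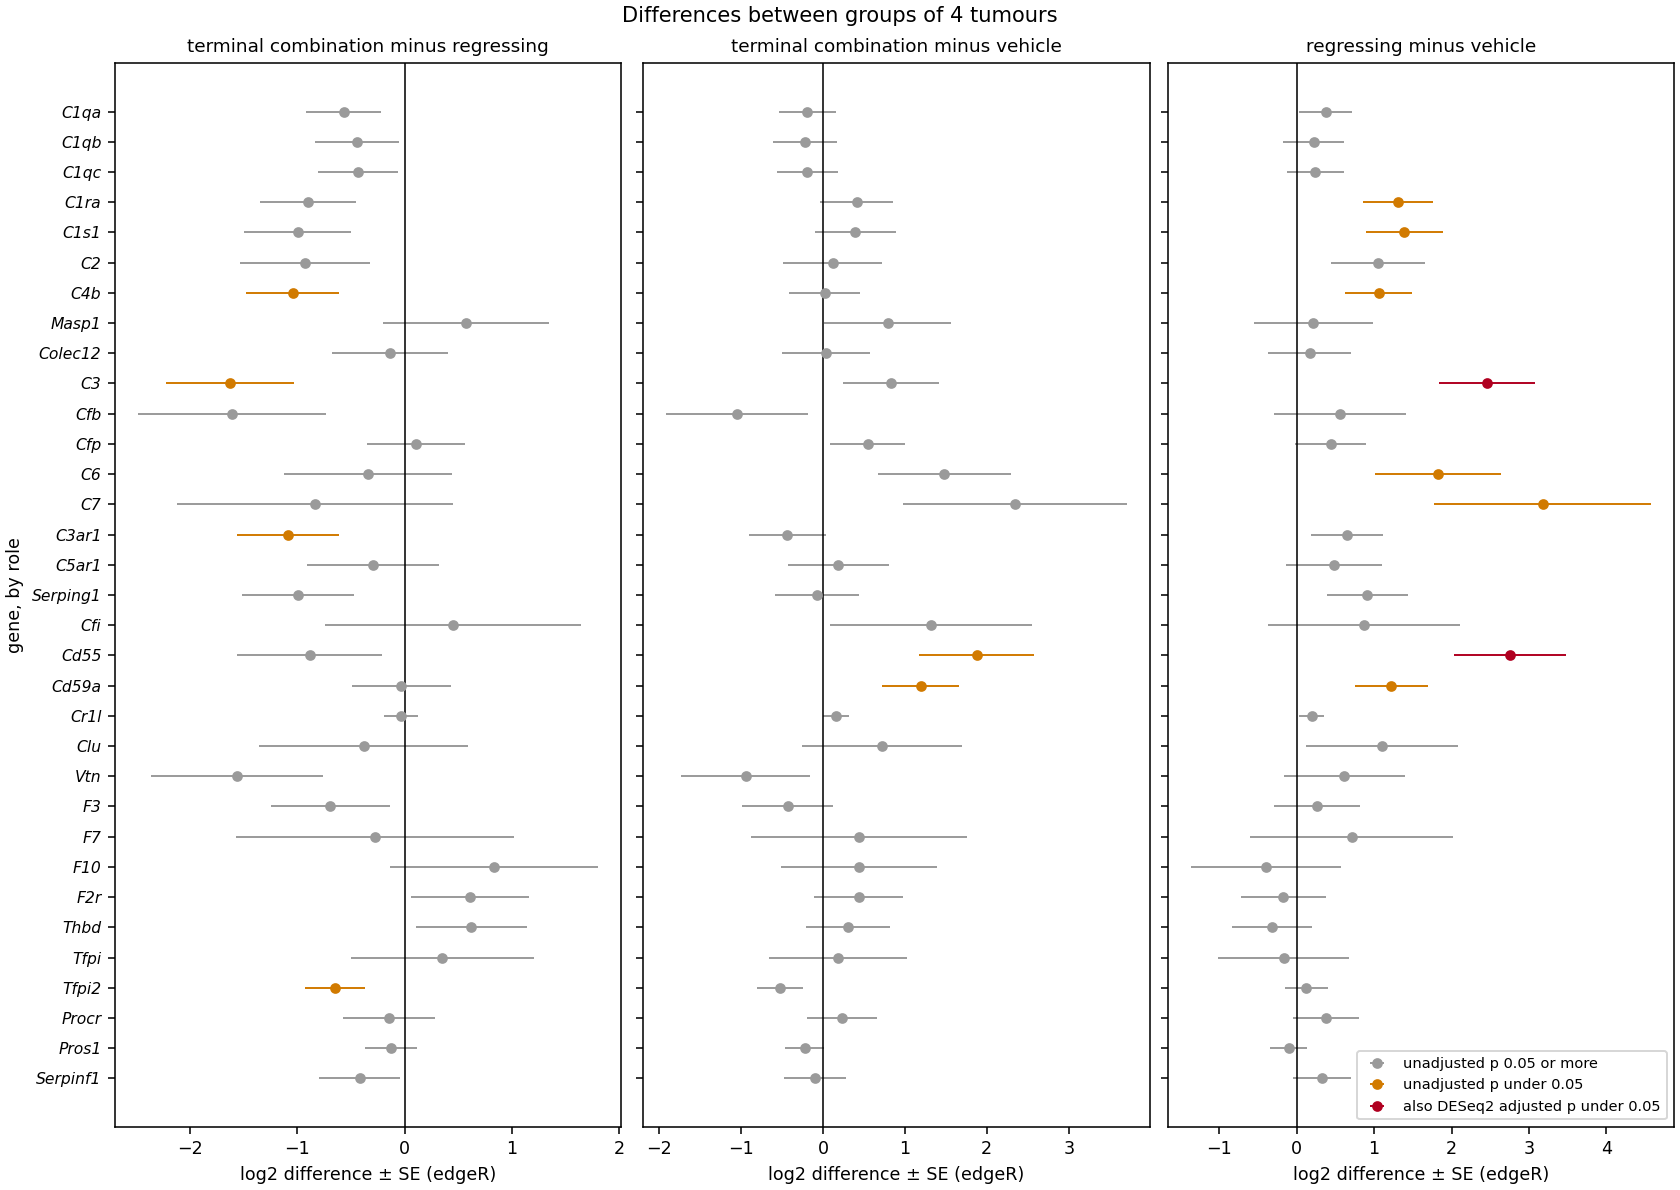
edgeR log2 difference ± SE of each tested member in role order, for terminal combination minus regressing, terminal combination minus vehicle and regressing minus vehicle from left to right, coloured by p. In the right panel all 23 complement members lie right of 0 and C3 and Cd55 carry the DESeq2 call, while the coagulation members lie on both sides.

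Other genes of the pathways were counted from lists outside the 37. Of 32 other complement genes 16 were tested, and of 27 other coagulation genes 12 were. EdgeR called none in any comparison. At an unadjusted p under 0.05 in edgeR, regressing against vehicle, 4 other complement genes and 1 other coagulation gene were higher, against 6.72% of all genes, and 0 were lower, against 6.03%. Terminal combination against vehicle, 2 other complement genes and 0 other coagulation genes were higher, against 3.35% of all genes, and 0 were lower, against 2.59%. Terminal combination against regressing, 1 other complement gene was higher, against 4.12%, and 1 other complement and 1 other coagulation gene were lower, against 2.9%. Regressing against vehicle, the log2 difference was above 0 for 11 of 16 (median 0.34) and 7 of 12 (median 0.18), against 48.5% of all genes. DESeq2 called Cfd and Csmd1 higher there, against 2.2% of all genes, and none elsewhere. With 1 library left out in turn, Cfd was called in 4 of 12 fits and Csmd1 in 5 of 12, with log2 differences of 2.87 to 4.80 and 4.16 to 7.34. Cfd (chromosome 10, 79890853 to 79892655) encodes factor D, which cuts factor B and is made by fat cells. It stood at 3.53, 24.3, 7.53 and 33.7 CPM across terminal combination tumours, 33.9, 78.8, 57.0 and 273 CPM across regressing tumours and 19.2, 5.93, 0 and 6.18 CPM across vehicle tumours. All regressing tumours lay above all vehicle tumours for Cfd, as for 3.5% of all genes. The log2 difference was 3.81 (SE 1.20, edgeR unadjusted p 0.00843, adjusted p 0.271, DESeq2 adjusted p 0.0222). Cfd is also one of the 10 adipocyte markers, whose summed CPM was higher in every regressing tumour than in any vehicle tumour. The part of adipocyte RNA in the Cfd values was not tested. Csmd1, a membrane regulator of C3 best known from brain, stood at 0.409, 5.18, 0 and 2.85 CPM across terminal combination tumours, 0.510, 0.813, 0.222 and 4.40 CPM across regressing tumours and 0, 0.143, 0 and 0 CPM across vehicle tumours, at or near 0 in vehicle. Hc, which encodes C5 and was chosen after its values were seen, stood at 0.512, 23.6, 2.54 and 11.01 CPM across terminal combination tumours, 1.02, 0.813, 1.02 and 0 CPM across regressing tumours and 1.15, 4.36, 0.915 and 2.39 CPM across vehicle tumours, highest in terminal combination replicates 2 and 4.

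Marker scores of 5 cell types were set beside the log2 CPM of the 33 tested members over the 12 tumours, 165 relations in all. Of these 12 passed a permutation test of Pearson's r after Benjamini-Hochberg adjustment, all positive. Cd55 ran most closely with skeletal muscle: r was 0.93 (permutation p 2e-05, adjusted 0.0033) and Spearman's rho 0.97 (permutation p 1e-05, the smallest that 100000 draws can give, adjusted 0.00165). Without the 2 tumours farthest from the median muscle score r was 0.94, with group means taken away it was 0.86, and in the 8 libraries without FFT in the title it was 0.96. Without their 2 farthest tumours the other 11 relations had r of 0.50 to 0.82 and unadjusted permutation p of 0.00401 to 0.14, and none passed after adjustment with 10 tumours left.

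Macrophage scores ran with C5ar1 (r = 0.88, rho = 0.83), C1qc (r = 0.86, rho = 0.82), C1qb (r = 0.84, rho = 0.80) and C1qa (r = 0.79, rho = 0.80), with adjusted permutation p of 0.0111, 0.0111, 0.01265 and 0.0332 for r and 0.0551 for each rho. These 4 also passed with group means taken away, at r of 0.87, 0.90, 0.87 and 0.84. Summed macrophage markers were 1953 to 3584 CPM in terminal combination tumours, 1748 to 3694 CPM in regressing tumours and 1283 to 3712 CPM in vehicle tumours, and so overlapped as C1q did. Fibroblast scores ran with C1s1 (r = 0.85, rho = 0.67), C3 (r = 0.81, rho = 0.68) and C1ra (r = 0.80, rho = 0.59), at adjusted p of 0.0111, 0.0134 and 0.0224 for r and 0.177, 0.172 and 0.329 for rho. Only C1s1 of these passed with group means taken away (r = 0.79). Summed fibroblast markers were 1150 to 4395 CPM in terminal combination tumours, 2642 to 6774 CPM in regressing tumours and 1250 to 3880 CPM in vehicle tumours. The sums were highest in regressing replicate 4, and the regressing and vehicle ranges overlapped. The part of fibroblast RNA in the C1ra, C1s1 and C3 values was not tested.

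Adipocyte scores ran with Cd55 (r = 0.85, rho = 0.75) and C3 (r = 0.75, rho = 0.80), the muscle score with C7 (r = 0.83, rho = 0.82) and the endothelial score with Vtn (r = 0.80, rho = 0.76). The adjusted p of r were 0.01265, 0.041, 0.0204 and 0.0339, those of rho were 0.12, 0.0551, 0.0551 and 0.103, and none of the 4 passed with group means taken away. The part of adipocyte RNA in the Cd55 and C3 values was not tested. No coagulation member passed with any of the 5 scores. Of the hepatocyte markers, Alb, which encodes albumin, reached at most 0.285 CPM in terminal combination tumours, 0.0637 CPM in regressing tumours and 7.06 CPM in vehicle tumours. The 8 hepatocyte markers summed to 0.768 to 1.37 CPM in terminal combination tumours, 0.813 to 1.91 CPM in regressing tumours and 0.356 to 13.5 CPM in vehicle tumours.

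**Figure D5:**
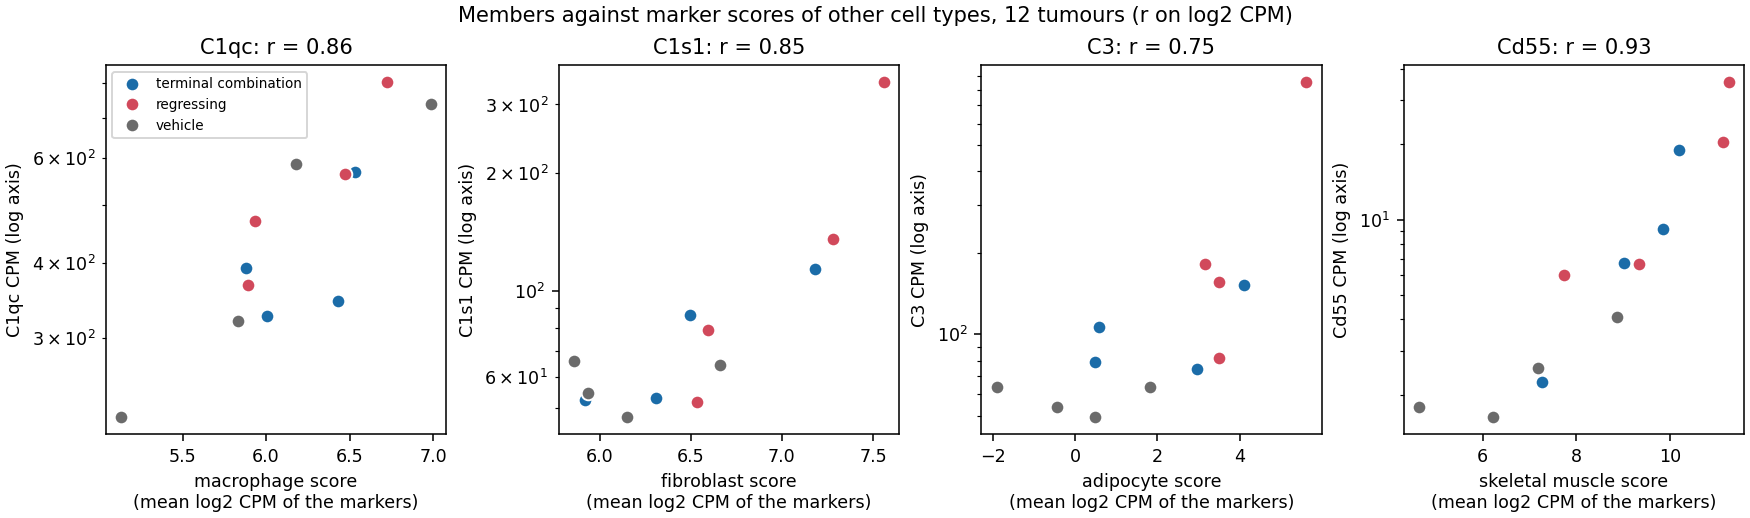
CPM of C1qc, C1s1, C3 and Cd55 (log axes) against the macrophage, fibroblast, adipocyte and skeletal muscle scores (mean log2 CPM of the markers) in 12 tumours, with terminal combination, regressing and vehicle tumours in separate colours. Cd55 follows the muscle score across all 3 groups (r = 0.93), and the highest C3 and C1s1 values belong to regressing replicate 4.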

How the data were processed

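Per the labels' protocols, the RNeasy mini kit yielded the RNA and the TruSeq Stranded mRNA kit the libraries. The authors deposited raw counts, 1 whole number per Ensembl gene. Per the submitters' processing notes the tools were HISAT2 2.2.1, Salmon and DESeq2 1.24.0 and the builds mm10 and GRCm38.p6. Which tool counted, on which strand and with which annotation release is not given in the sources used here, so overlapping genes and close copies may share reads.

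Symbols, positions and exon lengths came from GENCODE M21 (GRCm38), which held 54495 of the 54532 identifiers. The filter on low counts was filterByExpr with a minimum count of 10 and a minimum total of 15, and 15650 genes passed. Counts were scaled by TMM and fitted with edgeR 4.0.16 (quasi-likelihood test, R 4.3.3) over all 12 libraries for 3 comparisons, with Benjamini-Hochberg adjustment over all genes tested and a threshold of 0.05. The SE was taken from the log2 difference and its F statistic. DESeq2 1.42.0 was an alternative; 2 members had no DESeq2 adjusted p in 1 comparison and stay uncalled. The steps were tested on simulated data. CPM used the TMM-adjusted library size. Marker scores used log2 CPM with a prior count of 2, and correlations were tested with 100000 permutations (scipy 1.17.1).

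All members were named with CPM; log2 differences were given only where the unadjusted edgeR p was under 0.05. From the wider lists, genes called by either tool were named. Members, lists and the rule were chosen with earlier results of these data known. Alternatives were RLE scaling, no filter, only the groups compared, the title ending FFT, muscle and macrophage scores as covariates, and leaving out libraries. DESeq2 fits with libraries left out or the muscle score were added after seeing the data.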

Additional observations from a re-analysis of the deposited data

Results flagged for a closer look

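In 11 of 99 groups of 4 tumours, 1 tumour lay far from the other 3 by Dixon's criterion at the 95% level. The nominal rate of 1 group in 20 holds for independent, normally distributed values. CPM of genes from the same libraries need not be so, and the share over all genes was not computed. The count of 11 is therefore not read against a rate by chance. Regressing replicate 4 held 3 of these: C3 at 855 CPM beside 81.8 to 182 CPM in the other regressing tumours, Masp1 at 126 CPM beside 30.0 to 34.0 CPM, and Thbd at 73.8 CPM beside 50.7 to 54.0 CPM. C3ar1 of regressing replicate 2 stood at 175 CPM beside 61.1 to 79.1 CPM. In terminal combination replicate 4, C7 stood at 18.4 CPM beside 0.0512 to 1.73 CPM, and C5ar1 was lowest at 17.8 CPM beside 37.5 to 40.6 CPM. Terminal combination replicate 1 was high in 2 anticoagulant genes, Tfpi at 66.5 CPM beside 6.25 to 8.84 CPM and Procr at 27.5 CPM beside 7.87 to 9.65 CPM. Among vehicle tumours, replicate 2 held Clu at 633 CPM beside 70.9 to 118 CPM. Vehicle replicate 3 held Vtn at 21.8 CPM beside 1.43 to 3.91 CPM and F10 at 2.34 CPM beside 0.233 to 0.471 CPM.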

How the results depend on the processing

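By edgeR 0 members passed in any comparison under the main settings or any of the 20 other edgeR settings. DESeq2 called 2 in regressing against vehicle tumours, and 0 to 4 over all settings that left out 1 library by either tool, with 1 to 4 by DESeq2; the added calls were C1ra and C1s1 without regressing replicate 3, C4b without vehicle replicate 1, Cd59a without vehicle replicate 2 and Vtn without vehicle replicate 3. In terminal combination against vehicle the range was 0 to 1 (Cd59a, DESeq2 without vehicle replicate 2), and against regressing 0 to 1 (C3, DESeq2 without regressing replicate 3). Over the 165 relations with marker scores, 12 passed with all libraries, 6 with group means taken away, 3 among libraries lacking the ending FFT and 2 without the 2 farthest libraries. Of the 12, those still passing were 6, 1 and 1 in that order; C6 with the macrophage score passed in both of the last settings and Cr1l with the adipocyte score among libraries lacking FFT. The log2 difference of C7, regressing against vehicle, reversed to -0.88 in edgeR and -1.07 in DESeq2 once the muscle score was a covariate, and the cause was not tested. The other log2 differences named in the report for single comparisons, Cfd and Csmd1 included, kept their sign in every setting that gave a value. No paired analysis was possible because the titles give no replicate numbers and the numbers used here follow accession order. Depth limits F7, F10, Cfi, F5, Cd46, A2m and Proc, whose values lay near the limit of a count of 0 in many libraries.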
